A study of Arabidopsis thaliana with 12 samples.

Results

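Leaves of the Arabidopsis thaliana mutant ago1-27 were compared with wild-type leaves, both Col-0, after 12 h in the dark without submergence, going by the labels. The comparison holds 6 of the 12 arrays of the study, 3 labelled ago1-27_dark and 3 labelled WT_dark, placed in their groups by their titles. The other 6 arrays are labelled ago1-27_submerged (3) and WT_submerged (3), from plants kept 12 h in the dark under water that stood 10 cm above the leaves. All plants were 4 weeks old and grown at 23 °C, and each sample pooled 4 plants. Nothing in the labels says how many separate growth batches the pools came from, so the p-values measure the spread between these pools and arrays. Total RNA was hybridised to Affymetrix ATH1 arrays, whose probe sets near the 3′ end of each transcript give 1 signal per array.

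ARGONAUTE1 (AGO1) is the main slicer protein of plant microRNA silencing: it holds a microRNA, finds messenger RNAs that pair with it and cuts them or blocks their translation. The ago1-27 allele is hypomorphic, which leaves part of the function, and such plants are known for altered leaf shape and for raised levels of microRNA target transcripts. MicroRNA targets include regulators of leaf polarity, organ growth and flowering time, copper proteins and sulfate assimilation enzymes. No probe set is paired with AGO1 in the platform annotation, and the mutated gene therefore gave no check of the labels.

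The arrays shared one scale, with a 2% trimmed mean of 500 on each, and the median signal ran from 154 to 169 in ago1-27_dark and from 134 to 160 in WT_dark. A low-signal limit was set on each array at its 40th percentile, and probe sets that read above it on at least 3 of the 12 arrays were kept. The limit lay between 72.0 and 92.3 on the dark-labelled arrays, and 14812 of 22746 probe sets (65.1%) passed. AT2G42110 and AT3G63090 passed most narrowly, with third-highest ratios to the limit of 1.0 and 1.001, and AT1G49570 and AT3G48970 failed most narrowly, at 0.9995 and 0.9992. WT_dark replicate 1 stood somewhat apart from the other WT_dark arrays, with a mean correlation of 0.937 to its group, where the other dark-labelled arrays lay between 0.951 and 0.976. The 3′ to 5′ signal ratio of GAPDH, a sign of RNA breakdown, was 1.93 ± 0.27 in ago1-27_dark and 1.42 ± 0.111 in WT_dark (SD, n = 3 each; two-sided exact permutation p = 0.1, the smallest that 3 against 3 arrays allow). The ratios of actin (8.02 ± 0.86 in ago1-27_dark and 7.95 ± 0.477 in WT_dark) and ubiquitin (2.72 ± 0.197 in ago1-27_dark and 2.69 ± 0.129 in WT_dark) gave an exact permutation p of 1. The part of RNA quality in the results was not tested.

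Signals are given as deposited, on the linear MAS5 scale, and a change is the log2 signal of ago1-27 minus that of WT, ± its standard error. A gene is said to be called higher or lower where limma's p-value, adjusted by Benjamini-Hochberg over all probe sets tested, was under 0.05. Where every array of a group read under the low-signal limit, the fold is a lower bound, written as at least so many fold. Where only some arrays of a group read under it, the fitted change is given, and its size is less certain.

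The low-oxygen genes went against the labels. Of 27 measured genes of the low-oxygen response, which plants switch on when oxygen runs short under water, 25 were called lower in ago1-27_dark than in WT_dark, where 20.8% of all probe sets were, none was higher, and their median log2 change was -4.29. AT5G66985 gave 1.68, 3.52 and 13.9 on the ago1-27_dark arrays, against 9420, 7870 and 8980 on the WT_dark arrays, which made it at least 97.4-fold lower (adjusted p = 2.8e-06). AT4G24110 gave 3.45, 1.91 and 29.3 on the ago1-27_dark arrays, against 2210, 2350 and 2230 on the WT_dark arrays, and AT5G10040 gave 14.2, 40.2 and 84 on the ago1-27_dark arrays, against 11100, 10100 and 9390 on the WT_dark arrays. The groups were far apart for all 3 genes, with the WT_dark arrays, labelled as never submerged, at the high end. PDC2 (AT5G54960), a pyruvate decarboxylase of ethanol fermentation, gave 140, 100 and 101 in ago1-27_dark and 3360, 2380 and 2780 in WT_dark, a log2 change of -4.65 ± 0.29 (adjusted p = 2.5e-07). An exchange of group labels is therefore possible, and the contrast may be one of submergence. If the labels WT_dark and ago1-27_submerged were exchanged, the comparison would set ago1-27 leaves in the dark against submerged ago1-27 leaves, and genes given below as higher in ago1-27_dark would be genes lower under submergence.

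A control probe set, U12639, bears on the same point. Its signals were 26900, 27200 and 29100 on the ago1-27_dark arrays, 24500, 29800 and 29300 on the WT_dark arrays, 23.4, 9.31 and 23.6 on the ago1-27_submerged arrays, and 1.74, 44.7 and 6.07 on the WT_submerged arrays. It parted the arrays by the labelled treatment and did not part the 2 dark-labelled groups. Under the exchange named above it would part the arrays by genotype. Genotype and submergence cannot be told apart in these 6 arrays, so every direction below is one between labelled groups.

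**Figure D1:**
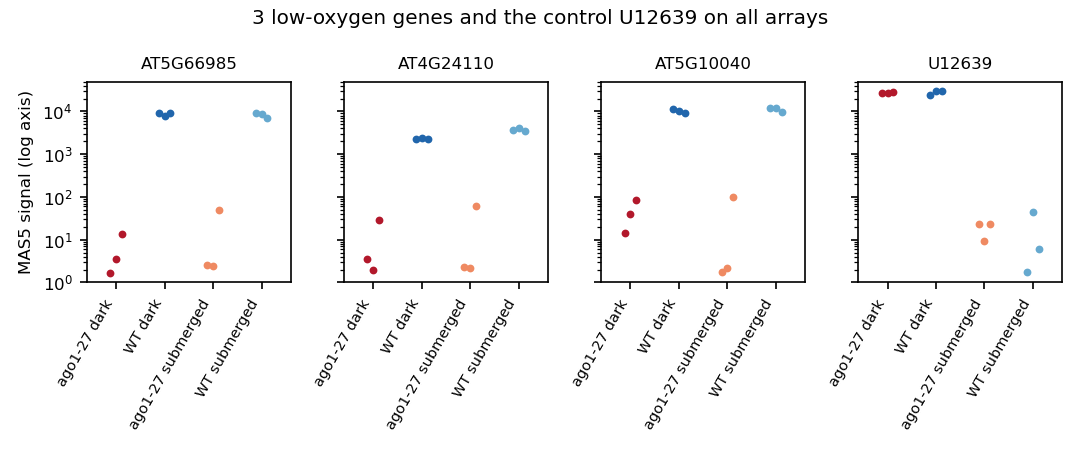
MAS5 signal (log axis) on each of the 12 arrays, 3 points per labelled group, for 3 low-oxygen genes and the control U12639. The low-oxygen genes are high in both groups labelled WT and low in both labelled ago1-27, and U12639 is near 27800 in both dark-labelled groups and near 18.8 and 17.5 in the ago1-27_submerged and WT_submerged groups.

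The tissue label was checked against markers. RCA (AT2G39730), the Rubisco activase of mesophyll chloroplasts, gave 28100, 30800 and 29300 in ago1-27_dark and 21700, 19400 and 22000 in WT_dark. Only 1 of 10 mesophyll markers, 2 of 8 guard cell, 4 of 10 root, 1 of 10 flower, 1 of 7 meristem and leaf polarity, and 1 of 5 trichome markers are named by the annotation. None of the phloem and seed markers looked for is named, so those tissues were not checked. The 4 root markers summed to 127 to 180 in ago1-27_dark and 129 to 203 in WT_dark, and 3 of them lay under the limit on all 12 arrays. The other, AT5G64100, gave 130, 91.7 and 98.8 in WT_dark, above the limit on each array. In ago1-27_dark it gave 42.7, 58.6 and 88.9, under the limit, and it was not called (limma, adjusted p = 0.18). The 2 guard cell markers summed to 455 to 819 in ago1-27_dark and 296 to 376 in WT_dark, and the flower marker AT3G23840 gave 110, 74.2 and 130 in ago1-27_dark and 47.1, 47.8 and 47.1 in WT_dark. In whole leaves, more cells of a type and more RNA per cell cannot be told apart.

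Over all 14812 probe sets, limma called 7834, which is 52.9%, and 8668 had an unadjusted p under 0.05. The calls were 4752 higher in ago1-27_dark (32.1% of all tested) and 3082 lower (20.8%). Changes of at least 2-fold made up 2380 of the higher and 1625 of the lower calls, and changes of at least 4-fold 517 and 679. The median log2 change over all probe sets was 0.17. When each array was centred on its median, which moved that median to -0.02, 3547 were called higher and 3990 lower, so the share of higher calls was 47.1% in place of 60.7%. Signals of the 6 arrays did not overlap between the groups for 9014 probe sets (60.9%). In 274 called probe sets WT_dark was under the limit on all 3 arrays while all 3 ago1-27_dark arrays exceeded it, and 299 showed the reverse. With 52.9% of probe sets called and 60.9% without overlap, a call or a lack of overlap alone sets no gene apart. Gene groups are read below against 32.1% higher and 20.8% lower.

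**Figure D2:**
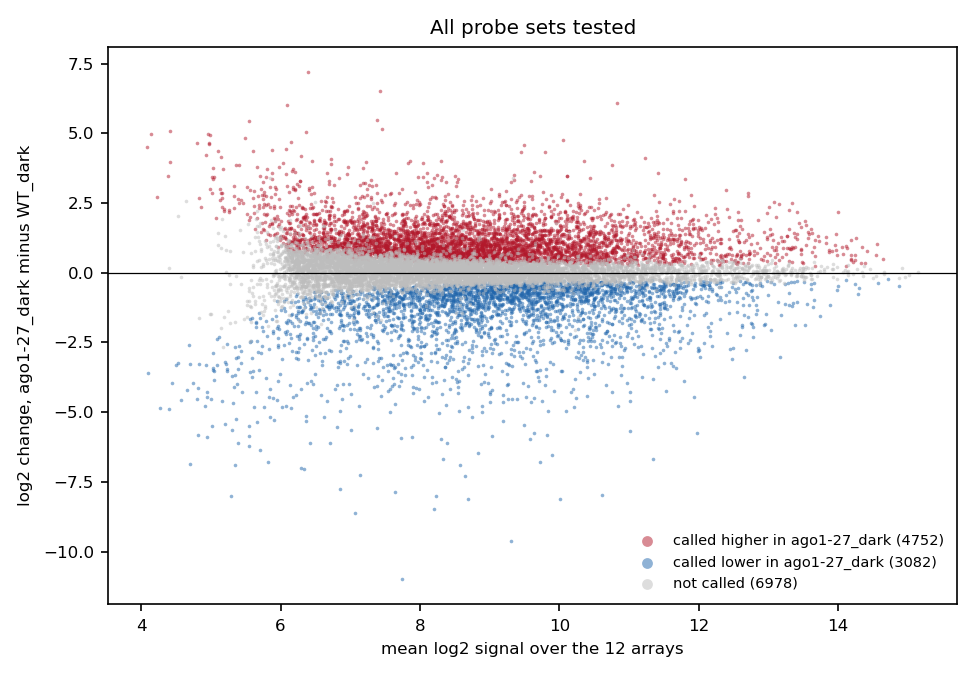
Log2 change, ago1-27_dark minus WT_dark, of each of the 14812 probe sets against its mean log2 signal over the 12 arrays. Red points are the 4752 called higher, blue points the 3082 called lower, and the falls reach further than the rises.

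The small RNA pathway held few calls. Of 12 measured small RNA genes, 2 were called higher and 1 lower, with a median log2 change of 0.02. SE (AT2G27100) and DDL (AT3G20550), partners of DICER-LIKE1 in cutting microRNA precursors, were not called, with log2 changes of -0.07 ± 0.16 (adjusted p = 0.74) and 0.09 ± 0.16 (adjusted p = 0.66). SE gave 247, 254 and 258 on the ago1-27_dark arrays, against 272, 231 and 296 on the WT_dark arrays, and the groups overlapped. The 3 calls were HWS and TGH higher and SQN lower, and all 3 ended on leaving out single arrays: no gene of the list was called without ago1-27_dark replicate 3, and only SQN without WT_dark replicate 2. SQN (AT2G15790), a cyclophilin that aids AGO1, was at -0.48 ± 0.18 (adjusted p = 0.041), and its adjusted p was 0.13 without WT_dark replicate 1. TGH (AT5G23080), a further precursor processing factor, was at 0.69 ± 0.21 (adjusted p = 0.015), with 0.066 without WT_dark replicate 2, and HWS (AT3G61590), an F-box protein, at 0.77 ± 0.30 (adjusted p = 0.045), with 0.13 without WT_dark replicate 3.

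Of 8 measured members of families with microRNA targets, 3 were called higher and 1 lower. PHV (AT1G30490), a leaf polarity factor of the HD-ZIP III class cut through miR165 and miR166, gave 436, 352 and 523 on the ago1-27_dark arrays, against 266, 212 and 193 on the WT_dark arrays. The groups did not overlap, and its log2 change of 0.96 ± 0.22 (adjusted p = 0.0028) stood beside 1.14 ± 0.22 in the submerged-labelled pair. TCP15 (AT1G69690), a class I TCP growth regulator that is not itself a miR319 target, gave 508, 517 and 486 on the ago1-27_dark arrays, against 190, 100 and 120 on the WT_dark arrays, a log2 change of 1.94 ± 0.21 (adjusted p = 1.1e-05). APS3 (AT4G14680), an ATP sulfurylase of the family that miR395 targets, gave 397, 428 and 342 on the ago1-27_dark arrays, against 407, 1640 and 1370 on the WT_dark arrays, with WT_dark replicate 1 level with ago1-27_dark. Its log2 change of -1.33 ± 0.40 (adjusted p = 0.015) lost its call without WT_dark replicate 2 or 3 (adjusted p = 0.073 and 0.065) and without ago1-27_dark replicate 3 (0.051), and was -1.95 without WT_dark replicate 1 (adjusted p = 1.2e-05). SNZ, an AP2-type flowering repressor targeted by miR172, was the third called higher, but it lay under the limit on all dark-labelled arrays and has no fold.

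Nuclear genes for photosynthesis were higher in ago1-27_dark. All 9 measured photosystem and antenna genes were called higher (median log2 change 1.22, range 0.76 to 2.51), and so were all 4 genes of the Calvin cycle and photorespiration (median 1.31). LHCB4.2 (AT3G08940), a minor antenna protein of photosystem II, gave 19000, 20900 and 19700 on the ago1-27_dark arrays, against 5600, 2610 and 2920 on the WT_dark arrays. PSAN (AT5G64040), the plastocyanin-side subunit of photosystem I, gave 15300, 17700 and 13900 in ago1-27_dark and 4650, 3320 and 3730 in WT_dark. The 2 groups did not overlap for either gene, and the log2 changes were 2.51 ± 0.22 (adjusted p = 3.1e-06) and 2.01 ± 0.16 (adjusted p = 1.2e-06). PSB27 (AT1G03600), an assembly factor of photosystem II, changed by 1.22 ± 0.16 (adjusted p = 4.6e-05), and PSAE-1 (AT4G28750), a stromal subunit of photosystem I, by 0.76 ± 0.12 (adjusted p = 0.00025).

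The carbon-fixing enzymes were higher too. SBPASE (AT3G55800), the bisphosphatase that regenerates the CO2 acceptor, gave 12300, 13200 and 11800 on the ago1-27_dark arrays, against 5680, 3780 and 5440 on the WT_dark arrays, a log2 change of 1.34 ± 0.18 (adjusted p = 5.7e-05). PRK (AT1G32060), the last kinase of that regeneration, gave 21100, 24600 and 20900 in ago1-27_dark and 10300, 7490 and 9710 in WT_dark, a change of 1.28 ± 0.17 (adjusted p = 5.7e-05). HPR (AT1G68010), the peroxisomal hydroxypyruvate reductase of photorespiration, changed by 1.40 ± 0.16 (adjusted p = 1.8e-05). None of these 3 genes overlapped between the groups. RCA changed least, by 0.49 ± 0.10 (adjusted p = 0.0014), and its call ended under median centring, at 0.30 with an adjusted p of 0.1.

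In chlorophyll synthesis 5 of 8 genes were called higher and 1 lower (median log2 change 1.14). The lower count was 2 with median centring, with array weights, or when WT_dark replicate 1 was left out. CHLM (AT4G25080), the methyltransferase that acts on magnesium protoporphyrin, gave 10200, 10800 and 9800 on the ago1-27_dark arrays, against 5040, 3520 and 4230 on the WT_dark arrays, a log2 change of 1.28 ± 0.14 (adjusted p = 1.7e-05). HEME1 (AT3G14930) and HEME2 (AT2G40490), the uroporphyrinogen decarboxylases of the shared haem and chlorophyll route, changed by 1.50 ± 0.21 (adjusted p = 7.5e-05) and 1.57 ± 0.21 (adjusted p = 6.9e-05). CHLI2 (AT5G45930), a magnesium chelatase subunit, changed by 1.27 ± 0.21 (adjusted p = 0.00029), and PORB (AT4G27440), a light-dependent protochlorophyllide reductase, by 1.01 ± 0.28 (adjusted p = 0.0091). Those were the 5 genes called higher, 2 genes were not called, and the 1 called lower encodes an entry enzyme. HEMA2 (AT1G09940), a glutamyl-tRNA reductase outside the main green-tissue route, gave 300, 295 and 317 on the ago1-27_dark arrays, against 352, 1060 and 1100 on the WT_dark arrays. Its WT_dark values were uneven, with replicate 1 close to the ago1-27_dark arrays, and its log2 change was -1.29 ± 0.34 (adjusted p = 0.0071).

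Nuclear factors that build chloroplasts were called higher in 24 of 37 cases and lower in 1, with a median log2 change of 0.80. Leaving out ago1-27_dark replicate 1 gave 2 lower. CRR42 (AT5G20935) and CRR21 (AT5G55740), both needed for the chloroplast NDH complex, gave 591, 652 and 425 in ago1-27_dark and 147, 91.3 and 109 in WT_dark for CRR42 and 265, 289 and 236 in ago1-27_dark and 85.5, 63.5 and 47 in WT_dark for CRR21. Their log2 changes were 2.27 ± 0.23 (adjusted p = 8.2e-06) and 2.05 ± 0.24 (adjusted p = 2.4e-05). CaS (AT5G23060), the thylakoid calcium sensor, gave 7620, 10300 and 8560 on the ago1-27_dark arrays, against 3190, 1350 and 2360 on the WT_dark arrays, a change of 2.01 ± 0.28 (adjusted p = 7.7e-05). CFM3A (AT3G23070), a splicing factor for plastid introns, changed by 1.88 ± 0.26 (adjusted p = 7.3e-05), SECE1 (AT4G14870), of the thylakoid protein translocase, by 1.67 ± 0.20 (adjusted p = 2.7e-05), and LIL3:1 (AT4G17600), a light-harvesting-like protein, by 1.42 ± 0.17 (adjusted p = 2.2e-05). NdhN (AT5G58260) and NdhL (AT1G70760), nuclear subunits of NDH, changed by 1.65 ± 0.22 (adjusted p = 5.5e-05) and 1.55 ± 0.21 (adjusted p = 6.1e-05). The gene that was lower, TAAC (AT5G01500), a thylakoid carrier of ATP and ADP, gave 248, 192 and 202 on the ago1-27_dark arrays, against 489, 946 and 955 on the WT_dark arrays, a change of -1.84 ± 0.31 (adjusted p = 0.00035).

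Genes of the plastid genome itself were mostly not called. Of 37 plastid-encoded photosystem, cytochrome, ATP synthase and Rubisco genes, 4 were called higher and none lower, with a median of 0.07, below the 0.17 of all probe sets. None of 9 plastid NDH genes was called (median 0.19), and 4 of 20 plastid expression genes were higher (median 0.19). rbcL (ArthCp030), the Rubisco large subunit, gave 2920, 3680 and 3340 on the ago1-27_dark arrays, against 1340, 1070 and 1160 on the WT_dark arrays, a log2 change of 1.48 ± 0.25 (adjusted p = 0.0003). psbN (ArthCp051) changed by 1.18 ± 0.24 (adjusted p = 0.0014), psaJ (ArthCp042), a photosystem I subunit, by 0.70 ± 0.13 (adjusted p = 0.00073), and the ribosomal protein genes rps16 (ArthCp004), rps18 (ArthCp044) and rpl33 (ArthCp043) by 1.69 ± 0.22 (adjusted p = 5.3e-05), 1.00 ± 0.22 (adjusted p = 0.002) and 0.88 ± 0.18 (adjusted p = 0.0013). The difference between nuclear and plastid genes was not tested. With the 6 dark-labelled arrays fitted alone, 8 of the 37 were called higher.

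The mitochondrial genome ran the other way. Of 12 measured genes, 7 were called lower and none higher, with a median log2 change of -0.79. nad5, a subunit of respiratory complex I, gave 53.4, 61.4 and 122 on the ago1-27_dark arrays, against 249, 268 and 328 on the WT_dark arrays, a change of -1.92 ± 0.35 (adjusted p = 0.00054). cox1, a subunit of cytochrome c oxidase, gave 172, 217 and 322 in ago1-27_dark and 568, 609 and 450 in WT_dark, a change of -1.23 ± 0.26 (adjusted p = 0.0015), and ccb452, of cytochrome c maturation, gave 275, 258 and 388 in ago1-27_dark and 797, 808 and 619 in WT_dark, a change of -1.28 ± 0.21 (adjusted p = 0.00024). The groups did not overlap for these genes. The count of 7 depended on single arrays: it was 3 without ago1-27_dark replicate 2 and 4 without WT_dark replicate 3. With the limit at the 60th percentile, which leaves fewer genes tested, it was 3. A control probe set for 25S rRNA was lower too, with 14600, 16200 and 15800 on the ago1-27_dark arrays, against 21200, 20400 and 18300 on the WT_dark arrays. What makes up the RNA read by the arrays could bear on organelle genes, and its part was not tested.

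**Figure D3:**
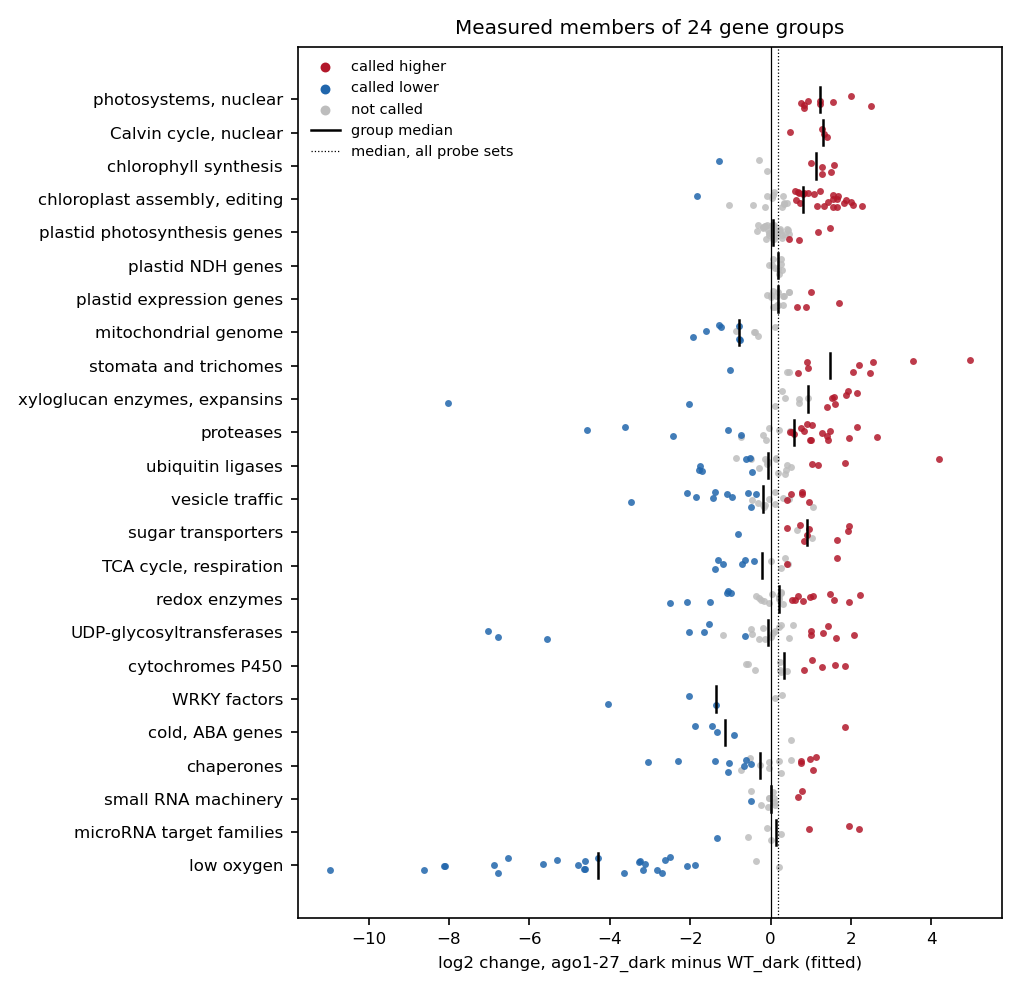
Fitted log2 change, ago1-27_dark minus WT_dark, of the measured genes in 24 gene groups, 1 point per gene, with the group median as a black bar and the median of all probe sets (0.17) dotted. Nuclear photosystem genes lie wholly to the right, the mitochondrial genome and low-oxygen genes lie mostly to the left, and plastid-encoded genes cluster near 0.

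Regulators of the leaf epidermis included some of the genes with wide gaps. Of 12 measured genes for stomata and trichomes 9 were called higher and 1 lower (median log2 change 1.49), a count that only describes them, since the list was put together after the values were seen. TRY (AT5G53200), a small MYB protein that blocks trichome fate in neighbouring cells, gave 590, 604 and 438 on the ago1-27_dark arrays, against 64.4, 37.1 and 40.4 on the WT_dark arrays. All WT_dark arrays were under the low-signal limit, so TRY was at least 6.97-fold higher (adjusted p = 1.5e-05). GIS (AT3G58070), a zinc finger factor that promotes trichome initiation, gave 375, 424 and 458 on the ago1-27_dark arrays, against 84.6, 64.8 and 66.7 on the WT_dark arrays, a log2 change of 2.55 ± 0.21 (adjusted p = 1.5e-06). STOMAGEN (AT4G12970), a secreted mesophyll peptide that raises stomatal density, gave 2020, 1970 and 1830 on the ago1-27_dark arrays, against 583, 334 and 394 on the WT_dark arrays, a change of 2.19 ± 0.24 (adjusted p = 1.3e-05). None of the 3 overlapped between the groups.

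PIR121 (AT5G18410) and BRK1 (AT2G22640), subunits of the SCAR/WAVE actin complex that shapes trichomes and pavement cells, changed by 0.94 ± 0.18 (adjusted p = 0.00078) and 0.90 ± 0.21 (adjusted p = 0.0034). GEM (AT2G22475), which counters epidermal hair fate through chromatin at its target genes, was the lower one, with 194, 172 and 207 on the ago1-27_dark arrays, against 315, 422 and 422 on the WT_dark arrays and a change of -1.01 ± 0.18 (adjusted p = 0.00059). CR4 (AT3G59420), a receptor-like kinase of epidermal cell layers, gave 99.9, 87.7 and 101 in ago1-27_dark and 2.34, 5.53 and 2.26 in WT_dark, at least 1.24-fold higher (adjusted p = 0.00076). The leaf polarity gene YAB3 (AT4G00180), expressed on the lower side of the leaf, gave 520, 432 and 427 on the ago1-27_dark arrays, against 310, 209 and 207 on the WT_dark arrays, a change of 0.95 ± 0.17 (adjusted p = 0.00061). The guard cell marker AT1G22690 gave 695, 556 and 372 in ago1-27_dark and 222, 305 and 271 in WT_dark, with a change of 0.99 ± 0.23 (adjusted p = 0.0031). FMA, the factor that sets guard cell identity, gave 123, 131 and 83 in ago1-27_dark and 74.7, 70.9 and 62.7 in WT_dark, and its call (adjusted p = 0.037) ended without ago1-27_dark replicate 1 or 2 or WT_dark replicate 2 or 3 (0.068 to 0.13). The part of a changed share of epidermal cells was not tested.

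Among enzymes that loosen the cell wall more were higher than lower. Among 15 measured xyloglucan enzymes and expansins, 7 were called higher and 2 lower, with a median log2 change of 0.93. Of all probe sets, 32.1% were called higher. The higher count of the list depended on single arrays. It was 5 without ago1-27_dark replicate 1 or 3 or WT_dark replicate 2, and 9 without ago1-27_submerged replicate 3. XTH32 (AT2G36870), a xyloglucan endotransglucosylase, gave 1120, 930 and 996 on the ago1-27_dark arrays, against 380, 186 and 172 on the WT_dark arrays, a log2 change of 2.14 ± 0.31 (adjusted p = 9.6e-05). The expansin EXPA8 (AT2G40610) gave 2970, 3270 and 2340 in ago1-27_dark and 1160, 662 and 1050 in WT_dark, a change of 1.61 ± 0.26 (adjusted p = 0.00021). EXPA9 (AT5G02260) and the expansin-like EXLA2 (AT4G38400) were at least 2.16-fold higher (adjusted p = 0.00039) and at least 2.65-fold higher (adjusted p = 0.00023). Their groups did not overlap.

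The members that were lower were the close paralogues XTH18 and XTH19, whose probe sets could share signal. XTH18 (AT4G30280) gave 5.96, 15.7 and 23 on the ago1-27_dark arrays, against 1040, 5380 and 6710 on the WT_dark arrays, and was at least 37.3-fold lower (adjusted p = 9.7e-07). It was at least 67.0-fold lower without WT_dark replicate 1, which gave the lowest XTH18 signal of the WT_dark arrays. XTH19 (AT4G30290) gave 211, 197 and 174 in ago1-27_dark and 565, 919 and 947 in WT_dark, a change of -2.03 ± 0.24 (adjusted p = 2.5e-05). Of 5 endoglucanases of family GH9, 3 were called higher and none lower, among them GH9B7 (AT1G75680) at 1.00 ± 0.18 (adjusted p = 0.00058). CSLA03 (AT1G23480), a glucomannan synthase of the cellulose synthase-like family, gave 577, 806 and 627 on the ago1-27_dark arrays, against 196, 112 and 120 on the WT_dark arrays, a change of 2.27 ± 0.21 (adjusted p = 3.8e-06).

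Of 7 measured auxin genes, 3 were called higher (42.9%, beside 32.1% of all probe sets), none lower and 4 were not called. With the limit at the 60th percentile, 4 auxin genes were left and 1 was called higher. IAA29 (AT4G32280), an auxin-induced repressor of auxin responses, gave 281, 348 and 331 on the ago1-27_dark arrays, against 106, 97.7 and 73.5 on the WT_dark arrays, a log2 change of 1.80 ± 0.20 (adjusted p = 1.3e-05). YUC2 (AT4G13260), an enzyme of auxin synthesis, changed by 0.89 ± 0.24 (adjusted p = 0.0083). Of 4 measured genes of gibberellin, cytokinin, brassinosteroid and strigolactone, 1 was called higher and 2 lower. The gibberellin receptor gene GID1B (AT3G63010) gave 188, 190 and 215 on the ago1-27_dark arrays, against 630, 1780 and 1250 on the WT_dark arrays, a change of -2.50 ± 0.30 (adjusted p = 2.7e-05), and its paralogue GID1A (AT3G05120) gave 355, 293 and 329 in ago1-27_dark and 1210, 617 and 610 in WT_dark, a change of -1.25 ± 0.31 (adjusted p = 0.0046). The groups did not overlap, although the WT_dark arrays were spread over a wide range for both receptors. ARR15 (AT1G74890), a cytokinin-induced response regulator, changed by 2.07 ± 0.49 (adjusted p = 0.0035), and by 2.69 without WT_dark replicate 1.

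Histone H2B genes were lower: HTB11 (AT3G46030) gave 799, 669 and 763 on the ago1-27_dark arrays, against 1700, 1700 and 1690 on the WT_dark arrays, a change of -1.19 ± 0.18 (adjusted p = 0.00015). HTB2 (AT5G22880) and HTB4 (AT5G59910) changed by -1.33 ± 0.32 (adjusted p = 0.0037) and -0.71 ± 0.20 (adjusted p = 0.0096). The H2B genes are near identical in sequence, and their probe sets can share signal. In the submerged-labelled pair their log2 changes were -0.24 ± 0.18, 0.08 ± 0.32 and 0.07 ± 0.20. TOPII (AT3G23890), the topoisomerase II of dividing cells, was at least 2.38-fold higher (adjusted p = 0.0091). Of the 8 cell division and histone genes in all, 1 was higher and 3 lower, or 3 higher without WT_dark replicate 1 and 2 higher without ago1-27_dark replicate 2 or ago1-27_submerged replicate 2 or 3.

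Among genes of protein turnover, proteases were mostly higher. Of 27 measured vacuolar processing enzymes, subtilases, carboxypeptidases and relatives, 16 were called higher and 5 lower (median log2 change 0.58), or 15 and 3 with the limit at the 60th percentile. ARA12 (AT5G67360), a subtilase of the cell wall, gave 2870, 2490 and 2490 on the ago1-27_dark arrays, against 910, 544 and 625 on the WT_dark arrays, a log2 change of 1.95 ± 0.20 (adjusted p = 7.8e-06). AARE (AT4G14570), an acylamino acid-releasing enzyme, gave 459, 519 and 394 in ago1-27_dark and 100, 87.3 and 121 in WT_dark, a change of 2.16 ± 0.22 (adjusted p = 8.3e-06), and the carboxypeptidase-like SCPL27 (AT3G07990) changed by 1.40 ± 0.22 (adjusted p = 0.00021). Their groups did not overlap. SBT3.5 (AT1G32940), another subtilase, gave 190, 177 and 179 on the ago1-27_dark arrays, against 637, 1980 and 745 on the WT_dark arrays, a change of -2.43 ± 0.39 (adjusted p = 0.00025), and GAMMA-VPE (AT4G32940), a vacuolar processing enzyme of vegetative tissue, changed by -0.73 ± 0.17 (adjusted p = 0.0026).

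Of 24 genes for ubiquitin ligases and partners, 4 were called higher and 6 lower, and the plant U-box ligases lay on both sides. Calls made up 41.7% of the list, beside 52.9% of all probe sets. PUB24 (AT3G11840), a brake on immune signalling, gave 138, 130 and 163 on the ago1-27_dark arrays, against 379, 604 and 490 on the WT_dark arrays, a log2 change of -1.76 ± 0.19 (adjusted p = 1.5e-05). PUB25 (AT3G19380) and PUB26 (AT1G49780), which act on the kinase BIK1 and in cold responses, were at least 2.74-fold higher (adjusted p = 4.8e-05) and at least 3.76-fold higher (adjusted p = 0.0015). PUB26 gave 248, 354 and 279 on the ago1-27_dark arrays, against 7.59, 11.3 and 47 on the WT_dark arrays, without overlap. BRH1 (AT3G61460), a RING protein responsive to brassinosteroid, changed by 1.02 ± 0.13 (adjusted p = 5e-05), and RHF1A (AT4G14220), a RING ligase of gametogenesis and the cell cycle, by -1.78 ± 0.21 (adjusted p = 2.7e-05).

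Vesicle traffic leaned lower, with 10 of 26 genes called lower and 5 higher (median -0.18). Calls in either direction made up 57.7%, near the 52.9% of all probe sets. The higher count was 3 without ago1-27_dark replicate 1 or WT_dark replicate 2 and 8 without WT_dark replicate 1. VPS2.1 (AT2G06530) and VPS60.1 (AT3G10640), of the ESCRT-III machinery that sorts membrane proteins to the vacuole, gave 537, 740 and 691 in ago1-27_dark and 1710, 2860 and 2600 in WT_dark for VPS2.1 and 362, 477 and 491 in ago1-27_dark and 745, 1620 and 1400 in WT_dark for VPS60.1. Their log2 changes were -1.85 ± 0.21 (adjusted p = 1.7e-05) and -1.44 ± 0.26 (adjusted p = 0.0006). SEC1B (AT4G12120), of the Sec1 family that steers membrane fusion, changed by -2.08 ± 0.30 (adjusted p = 0.00011). TET7 (AT4G28050), a tetraspanin membrane protein, was on the higher side, at 0.78 ± 0.16 (adjusted p = 0.0013).

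Sugar transporters were higher in 8 of 11 cases and lower in 1. Leaving out 1 array at a time gave 6 to 9 higher, and the lower count was 0 without ago1-27_dark replicate 1 or 3 or WT_dark replicate 2 or 3. SFP1 (AT5G27350) and SFP2 (AT5G27360), monosaccharide transporters of the ERD6-like family, gave 1770, 1910 and 1530 in ago1-27_dark and 391, 486 and 460 in WT_dark for SFP1 and 263, 344 and 290 in ago1-27_dark and 81.7, 83.1 and 71.3 in WT_dark for SFP2. Both were clear of overlap, with log2 changes of 1.96 ± 0.16 (adjusted p = 1.4e-06) and 1.92 ± 0.19 (adjusted p = 6.7e-06). SWEET2 (AT3G14770) and SWEET17 (AT4G15920), sugar carriers of the vacuolar membrane, changed by 1.65 ± 0.28 (adjusted p = 0.00032) and 0.90 ± 0.21 (adjusted p = 0.0032).

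The list for starvation and branched-chain amino acid breakdown held 7 measured genes, and 3 were called higher and 1 lower, with a median log2 change of 0.67. The share called, 57.1%, was near the 52.9% of all probe sets. The largest rise was that of SIS (AT5G02020), a salt-induced serine-rich protein for which no role in amino acid breakdown is given here. It gave 2560, 2240 and 2280 on the ago1-27_dark arrays, against 408, 432 and 380 on the WT_dark arrays, a log2 change of 2.54 ± 0.24 (adjusted p = 4.5e-06). The groups were far apart. AKINBETA1 (AT5G21170), a beta subunit of the energy-sensing kinase SnRK1, gave 4700, 5430 and 4890 on the ago1-27_dark arrays, against 3130, 2240 and 2340 on the WT_dark arrays, a log2 change of 0.98 ± 0.21 (adjusted p = 0.0018), and MCCA (AT1G03090), a subunit of methylcrotonyl-CoA carboxylase in leucine breakdown, gave 1090, 1280 and 1510 in ago1-27_dark and 1060, 872 and 439 in WT_dark, a change of 0.79 ± 0.31 (adjusted p = 0.048). The call of MCCA ended on leaving out any ago1-27_dark array, WT_dark replicate 2 or 3 (adjusted p = 0.23 without replicate 3), or a submerged-labelled array other than replicate 2 of WT and replicate 3 of ago1-27. IVD (AT3G45300), which breaks down leucine in mitochondria, gave 269, 376 and 402 in ago1-27_dark and 570, 685 and 563 in WT_dark, a change of -0.81 ± 0.18 (adjusted p = 0.0024). Of 7 starch and sucrose genes, 3 were higher and 1 lower, or 1 higher and 2 lower with each array centred on its median, and the lower count was 0 without ago1-27_dark replicate 2 or 3 or WT_dark replicate 3. The share called was again 57.1%. AMY1 (AT4G25000), an extracellular alpha-amylase of that list, was at least 1.22-fold higher (adjusted p = 0.0022). Of 12 genes of the tricarboxylic acid cycle and respiration, 2 were higher and 6 lower, and the higher count was 1 on leaving out any ago1-27_dark array or WT_dark replicate 2 or 3. SDH2-2 (AT5G40650), an iron-sulfur subunit of succinate dehydrogenase, gave 713, 756 and 705 on the ago1-27_dark arrays, against 229, 246 and 219 on the WT_dark arrays, a change of 1.65 ± 0.12 (adjusted p = 8.7e-07). The subunits of NAD-dependent isocitrate dehydrogenase IDH-VI (AT3G09810) and IDH-V (AT5G03290) changed by -1.31 ± 0.19 (adjusted p = 0.0001) and -0.72 ± 0.11 (adjusted p = 0.00015). CYTC-2 (AT4G10040), a cytochrome c, gave 1020, 1140 and 921 in ago1-27_dark and 1540, 4160 and 2950 in WT_dark, a change of -1.38 ± 0.28 (adjusted p = 0.0012), and NDB2 (AT4G05020), an alternative NADH dehydrogenase, changed by -1.19 ± 0.35 (adjusted p = 0.012).

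Of 5 WRKY factors, 3 were called lower and none higher. WRKY6 (AT1G62300) gave 75.4, 70 and 28.7 on the ago1-27_dark arrays, against 477, 1500 and 962 on the WT_dark arrays and was at least 9.84-fold lower (adjusted p = 1.7e-05). WRKY53 (AT4G23810), a factor of senescence and defence, gave 290, 426 and 530 in ago1-27_dark and 1200, 1960 and 1930 in WT_dark, a log2 change of -2.04 ± 0.31 (adjusted p = 0.00014), and WRKY22 (AT4G01250), which acts in immunity and submergence, changed by -1.36 ± 0.24 (adjusted p = 0.0004). STZ (AT1G27730), a zinc finger repressor of stress responses, gave 268, 317 and 415 on the ago1-27_dark arrays, against 964, 3260 and 2020 on the WT_dark arrays, a change of -2.50 ± 0.39 (adjusted p = 0.00018). Of 5 receptor-like kinases, 1 was called higher and 2 lower. THE1 (AT5G54380), a sensor of cell wall integrity, gave 835, 793 and 841 on the ago1-27_dark arrays, against 480, 444 and 451 on the WT_dark arrays, a change of 0.85 ± 0.15 (adjusted p = 0.00053). BIK1 (AT2G39660), a kinase below immune receptors, changed by -1.47 ± 0.28 (adjusted p = 0.00089), and EFR (AT5G20480), the receptor of bacterial elongation factor Tu, was at least 1.59-fold lower (adjusted p = 0.01).

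Defensins went both ways. PDF1.2 (AT5G44420) and PDF1.2b (AT2G26020), near-identical antifungal defensins induced by jasmonate and ethylene, gave 344, 336 and 399 in ago1-27_dark and 72.9, 84.1 and 87 in WT_dark for PDF1.2 and 414, 499 and 571 in ago1-27_dark and 172, 206 and 229 in WT_dark for PDF1.2b. Their log2 changes were 2.15 ± 0.37 (adjusted p = 0.00037) and 1.29 ± 0.34 (adjusted p = 0.0064), and LCR68 (AT2G02130) changed by 0.92 ± 0.18 (adjusted p = 0.00084). The defensin-like LCR67 (AT1G75830) gave 1.69, 2.65 and 4.96 on the ago1-27_dark arrays, against 362, 1050 and 964 on the WT_dark arrays, and was at least 7.99-fold lower (adjusted p = 5.7e-07). In all, 3 of 8 defensins were higher and 1 lower, and without WT_dark replicate 1 the counts were 4 and 2. JAL23 (AT2G39330), a jacalin-related lectin, gave 454, 327 and 379 on the ago1-27_dark arrays, against 58.4, 59.7 and 25.4 on the WT_dark arrays and was at least 4.96-fold higher (adjusted p = 3.3e-05), and the beta-glucosidase BGLU16 (AT3G60130) changed by 1.56 ± 0.16 (adjusted p = 9.3e-06).

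Of 26 UDP-glycosyltransferases, which attach sugars to hormones and secondary metabolites, 6 were higher and 8 lower. Calls made up 53.8% of them, near the 52.9% of all probe sets. UGT76B1 (AT3G11340), which glycosylates the immune regulator isoleucic acid, gave 4.82, 23 and 11.3 on the ago1-27_dark arrays, against 1330, 1690 and 1210 on the WT_dark arrays, and was at least 15.5-fold lower (adjusted p = 6.1e-05). UGT73B4 (AT2G15490) was at least 7.23-fold lower (adjusted p = 1.3e-06) and UGT73B5 (AT2G15480) at least 16-fold lower (adjusted p = 1.7e-05), the second at least 26.0-fold without WT_dark replicate 1. UGT87A2 (AT2G30140) gave 788, 876 and 1180 in ago1-27_dark and 2090, 5900 and 4400 in WT_dark, a log2 change of -2.02 ± 0.35 (adjusted p = 0.0004). On the other side, UGT78D1 (AT1G30530), the flavonol rhamnosyltransferase, gave 789, 649 and 587 on the ago1-27_dark arrays, against 178, 138 and 167 on the WT_dark arrays, a change of 2.07 ± 0.39 (adjusted p = 0.00071). UGT88A1 (AT3G16520) and UGT71C4 (AT1G07250) changed by 1.63 ± 0.18 (adjusted p = 1.6e-05) and 1.42 ± 0.20 (adjusted p = 7.5e-05), and HCT (AT5G48930), a shikimate hydroxycinnamoyl transferase of lignin synthesis, by 1.70 ± 0.12 (adjusted p = 7.6e-07).

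Among 7 glutathione transferases 3 were higher and 1 lower, and among 12 cytochromes P450 5 were higher and none lower (1 lower without WT_dark replicate 1 or ago1-27_submerged replicate 3). Calls made up 57.1% of the glutathione transferases and 41.7% of the cytochromes P450, beside 52.9% of all probe sets. GSTU20 (AT1G78370) gave 2100, 2230 and 2010 on the ago1-27_dark arrays, against 770, 574 and 300 on the WT_dark arrays, a log2 change of 2.05 ± 0.30 (adjusted p = 0.00013), and GSTU18 (AT1G10360) changed by 1.82 ± 0.22 (adjusted p = 2.6e-05). GSTU25 (AT1G17180), of the same tau class, gave 3.43, 32.8 and 4.96 in ago1-27_dark and 416, 546 and 170 in WT_dark and was at least 3.77-fold lower (adjusted p = 0.00085). The monooxygenases CYP71B28 (AT1G13090) and CYP71B22 (AT3G26200) changed by 1.86 ± 0.24 (adjusted p = 4.5e-05) and 1.61 ± 0.20 (adjusted p = 3.9e-05).

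Of 27 redox enzymes, 10 were called higher and 6 lower. Calls made up 59.3% of them, near the 52.9% of all probe sets, and their median log2 change of 0.22 was near the 0.17 of all. Those higher included TRXF2 (AT5G16400), a chloroplast thioredoxin that switches Calvin cycle enzymes on in light. It gave 2710, 2930 and 2420 on the ago1-27_dark arrays, against 930, 592 and 606 on the WT_dark arrays, a change of 1.95 ± 0.21 (adjusted p = 1.4e-05). AOR (AT1G23740), a plastid reductase of reactive carbonyls, gave 4180, 4750 and 4230 in ago1-27_dark and 1970, 1160 and 1740 in WT_dark, a change of 1.47 ± 0.22 (adjusted p = 0.00012), and the aldehyde dehydrogenase ALDH11A3 (AT2G24270) changed by 2.23 ± 0.17 (adjusted p = 1.2e-06). Those lower included ALDH2C4 (AT3G24503), a cytosolic dehydrogenase that makes ferulic and sinapic acid, at -1.51 ± 0.23 (adjusted p = 0.00018). GRXC2 (AT5G40370), a cytosolic glutaredoxin, gave 3970, 3570 and 3300 in ago1-27_dark and 5920, 8440 and 7260 in WT_dark, a change of -0.99 ± 0.13 (adjusted p = 6.6e-05).

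Calcium sensor genes lay on both sides. CML38 (AT1G76650), a calmodulin-like protein of stress granules in low oxygen, was at least 49-fold lower (adjusted p = 9.9e-10). CML41 (AT3G50770), which gates plasmodesmata in immunity, went the other way, with 699, 982 and 991 on the ago1-27_dark arrays, against 305, 569 and 449 on the WT_dark arrays and a log2 change of 1.04 ± 0.27 (adjusted p = 0.0062). GLR3.3 (AT1G42540), a glutamate receptor-like channel of wound signalling, gave 280, 304 and 317 in ago1-27_dark and 115, 123 and 122 in WT_dark, a change of 1.32 ± 0.17 (adjusted p = 4e-05). Of 10 calcium genes, 2 were higher and 4 lower.

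BZIP60 (AT1G42990), a transcription factor of the unfolded protein response, gave 813, 915 and 871 on the ago1-27_dark arrays, against 1950, 5540 and 4450 on the WT_dark arrays, a change of -2.07 ± 0.30 (adjusted p = 9.7e-05), and its partner BZIP28 (AT3G10800) changed by -0.70 ± 0.18 (adjusted p = 0.0063). BZIP61 (AT3G58120), another factor of the bZIP class, was higher, with 958, 1170 and 995 in ago1-27_dark and 217, 99.9 and 150 in WT_dark and a change of 2.81 ± 0.29 (adjusted p = 9.7e-06). Among 11 IQD calmodulin-binding proteins 5 were higher and 2 lower, or 3 higher without ago1-27_dark replicate 3 or WT_dark replicate 2 or 3. Their share of calls was 63.6%, beside 52.9% of all probe sets. IQD22 (AT4G23060) gave 344, 384 and 384 on the ago1-27_dark arrays, against 1220, 1220 and 1250 on the WT_dark arrays, a change of -1.73 ± 0.11 (adjusted p = 3.2e-07), and IQD23 (AT5G62070) one of -2.07 ± 0.16 (adjusted p = 9.1e-07). iqd21 (AT3G49260) ran against them, at 1.87 ± 0.22 (adjusted p = 2.4e-05).

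Of 21 chaperones and partners, 5 were higher and 8 lower, with a median log2 change of -0.26 that became 0.09 without ago1-27_dark replicate 2. Calls made up 61.9% of the list, beside 52.9% of all probe sets. Hop2 (AT1G62740) and Hop3 (AT4G12400), which hand clients between Hsp70 and Hsp90, were lower. Hop2 gave 354, 324 and 346 on the ago1-27_dark arrays, against 1180, 2090 and 1970 on the WT_dark arrays, a change of -2.31 ± 0.19 (adjusted p = 1.9e-06), and Hop3 was at least 1.58-fold lower (adjusted p = 0.00036). SGT1A (AT4G23570), an Hsp90 partner in immune receptor assembly, changed by -1.39 ± 0.19 (adjusted p = 6.3e-05), and CRT1b (AT1G09210), a calreticulin of the endoplasmic reticulum, by 1.12 ± 0.23 (adjusted p = 0.0015).

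Cold- and abscisic acid-responsive genes were called lower in 4 of 6 cases and higher in 1, with a second higher without WT_dark replicate 1 or ago1-27_submerged replicate 3. COR47 (AT1G20440), a dehydrin, gave 1090, 1420 and 1160 on the ago1-27_dark arrays, against 294, 349 and 366 on the WT_dark arrays, a log2 change of 1.85 ± 0.22 (adjusted p = 2.3e-05). COR15A (AT2G42540) and COR15B (AT2G42530), chloroplast proteins of freezing tolerance, gave 86.9, 115 and 142 in ago1-27_dark and 377, 534 and 355 in WT_dark for COR15A and 465, 448 and 412 in ago1-27_dark and 989, 815 and 726 in WT_dark for COR15B. Their changes were -1.89 ± 0.24 (adjusted p = 4.3e-05) and -0.92 ± 0.19 (adjusted p = 0.0012). COR27 (AT5G42900), a cold-induced regulator of flowering and the clock, and RD2 (AT2G21620), a drought-responsive gene, changed by -1.33 ± 0.24 (adjusted p = 0.00061) and -1.45 ± 0.24 (adjusted p = 0.00029).

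In sulfur metabolism BCAT4 (AT3G19710), the aminotransferase that opens methionine chain elongation for glucosinolates, gave 702, 1230 and 885 on the ago1-27_dark arrays, against 81.6, 107 and 71 on the WT_dark arrays. The groups were far apart, with a log2 change of 3.42 ± 0.28 (adjusted p = 1.7e-06). WT_dark replicates 1 and 3 were under their low-signal limits of 84.6 and 75.6, so the size of this change is uncertain. Of 8 sulfate and glucosinolate genes, 2 were higher and 4 lower, and the lower count was 2 without ago1-27_dark replicate 3 or WT_dark replicate 3 and 1 without WT_dark replicate 2.

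Several of the largest changes fell in genes known here only by locus, for which no role is given. AT3G28220 gave 1460, 1790 and 1250 on the ago1-27_dark arrays, against 5.81, 14.7 and 12.3 on the WT_dark arrays, and was at least 19.2-fold higher (adjusted p = 8.2e-07). AT5G48490 gave 2920, 3040 and 2820 on the ago1-27_dark arrays, against 281, 96.8 and 114 on the WT_dark arrays, a log2 change of 4.33 ± 0.36 (adjusted p = 1.9e-06), and AT3G09580 was at least 10.7-fold higher (adjusted p = 1.3e-07). AT3G28220 and AT3G09580 were under the low-signal limit on all 3 WT_dark arrays, and AT5G48490 was above it on each. At the other end, AT4G39675 gave 26.4, 1.71 and 25.6 on the ago1-27_dark arrays, against 4830, 3480 and 3060 on the WT_dark arrays, and was at least 41.5-fold lower (adjusted p = 1.7e-05). AT2G22880 was at least 22.2-fold lower (adjusted p = 6.4e-07), AT1G08310 at least 8.86-fold lower (adjusted p = 6.8e-07) and AT1G63530 at least 35.7-fold lower (adjusted p = 1.7e-06), the last at least 57.3-fold without WT_dark replicate 1. AT2G41730 gave 106, 103 and 117 in ago1-27_dark and 3070, 12600 and 5230 in WT_dark, a change of -5.76 ± 0.38 (adjusted p = 3.5e-07).

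**Figure D4:**
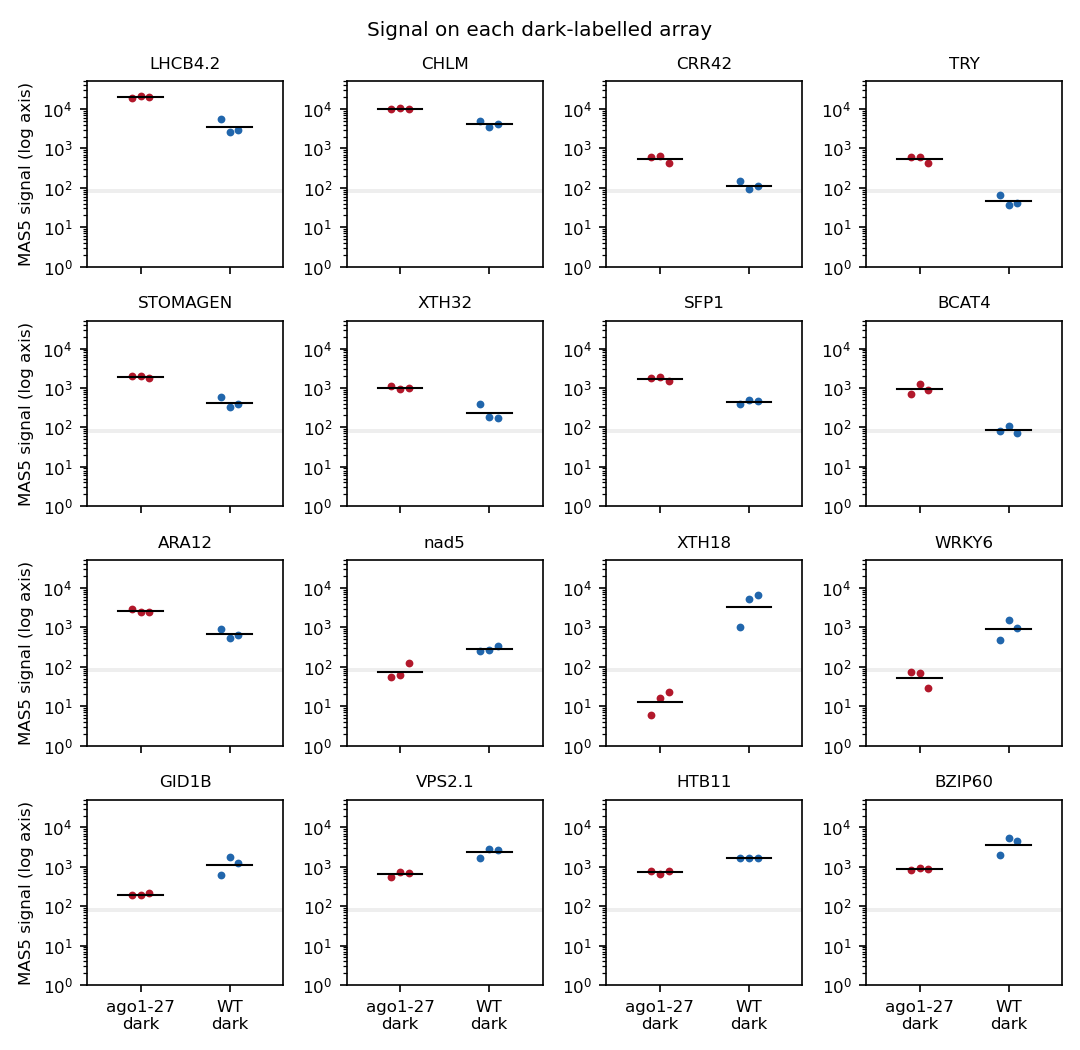
MAS5 signal (log axis) of 16 genes on the 3 ago1-27_dark arrays (red, left) and the 3 WT_dark arrays (blue, right), with the geometric mean as a black line and the range of the low-signal limit, 72.0 to 92.3, as a grey band. The arrays of the groups do not overlap for any of the 16 genes, which also holds for 60.9% of all probe sets. WT_dark replicate 1, the leftmost blue point, lies nearest to ago1-27_dark for several.

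The same labelled contrast was available in 6 other arrays, ago1-27_submerged against WT_submerged, which share no array with the dark-labelled pair. It gave 6591 calls (44.5%). Of the 7834 calls of the dark-labelled pair, 5285 (67.5%) were called in the same direction there, which is 80.2% of the calls of the submerged-labelled pair, and 18 were called in opposite directions. The shared calls were 3157 higher and 2128 lower. Both pairs share one estimate of the spread, and the low-oxygen genes ran the same way in both, with 26 called lower in the submerged-labelled pair (median log2 change -4.25). The sign alone matched for 7485 (95.5%) of the calls of the dark-labelled pair.

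The difference between the 2 contrasts was tested as an interaction and was called for 42 probe sets (0.284%), against 2187 at an unadjusted p under 0.05. This count depended on single arrays: it was 726 without WT_dark replicate 1, the array that stood apart in its group, and 5 without WT_submerged replicate 1. The genes below hold for the fit over all 12 arrays. FHL (AT5G02200), which carries phytochrome A into the nucleus, gave 66.8, 106 and 81 on the ago1-27_dark arrays, against 902, 1070 and 1120 on the WT_dark arrays. Its log2 change was -3.63 ± 0.19 (adjusted p = 6.9e-08) in the dark-labelled pair and -1.55 ± 0.19 in the submerged-labelled pair, a difference of -2.08 ± 0.27 (adjusted p = 0.015).

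BGLU25 (AT3G03640), a beta-glucosidase, gave 268, 254 and 199 on the ago1-27_dark arrays, against 1450, 1040 and 1080 on the WT_dark arrays, a log2 change of -2.30 ± 0.24 (adjusted p = 8.6e-06), where the submerged-labelled pair gave 0.05 ± 0.24. The difference was -2.36 ± 0.33 (adjusted p = 0.015). Hop2 likewise changed by -0.45 ± 0.19 in the submerged-labelled pair, a difference of -1.86 ± 0.27 (adjusted p = 0.016). AT3G22240 gave 1590, 2660 and 2800 on the ago1-27_dark arrays, against 18800, 17700 and 18900 on the WT_dark arrays, a log2 change of -3.02 ± 0.25 (adjusted p = 1.8e-06), and differed from its submerged-labelled change of -0.42 ± 0.25 by -2.60 ± 0.36 (adjusted p = 0.015). AT2G05540 gave 793, 915 and 889 on the ago1-27_dark arrays, against 126, 157 and 103 on the WT_dark arrays, a change of 2.77 ± 0.18 (adjusted p = 2.8e-07), against 0.62 ± 0.18 in the submerged-labelled pair, a difference of 2.15 ± 0.25 (adjusted p = 0.013).

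Some genes changed in opposite directions. AT1G73600 gave 184, 196 and 159 on the ago1-27_dark arrays, against 308, 426 and 476 on the WT_dark arrays, a log2 change of -1.15 ± 0.22 (adjusted p = 0.0008), and 0.97 ± 0.22 in the submerged-labelled pair, a difference of -2.12 ± 0.31 (adjusted p = 0.016). AT3G50560 gave 426, 554 and 461 in ago1-27_dark and 282, 232 and 243 in WT_dark, a change of 0.92 ± 0.16 (adjusted p = 0.00042), and -0.84 ± 0.16 in the submerged-labelled pair, a difference of 1.76 ± 0.23 (adjusted p = 0.015). For CHI (AT2G43570), AT5G05250, AT4G12490 and AT4G12500 the dark-labelled groups overlapped and were not called, and the change lay in the submerged-labelled pair. AT4G12500 gave 121, 231 and 139 on the ago1-27_dark arrays, against 167, 238 and 244 on the WT_dark arrays, a change of -0.44 ± 0.40 (adjusted p = 0.37), beside -4.30 ± 0.40 in the submerged-labelled pair.

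**Figure D5:**
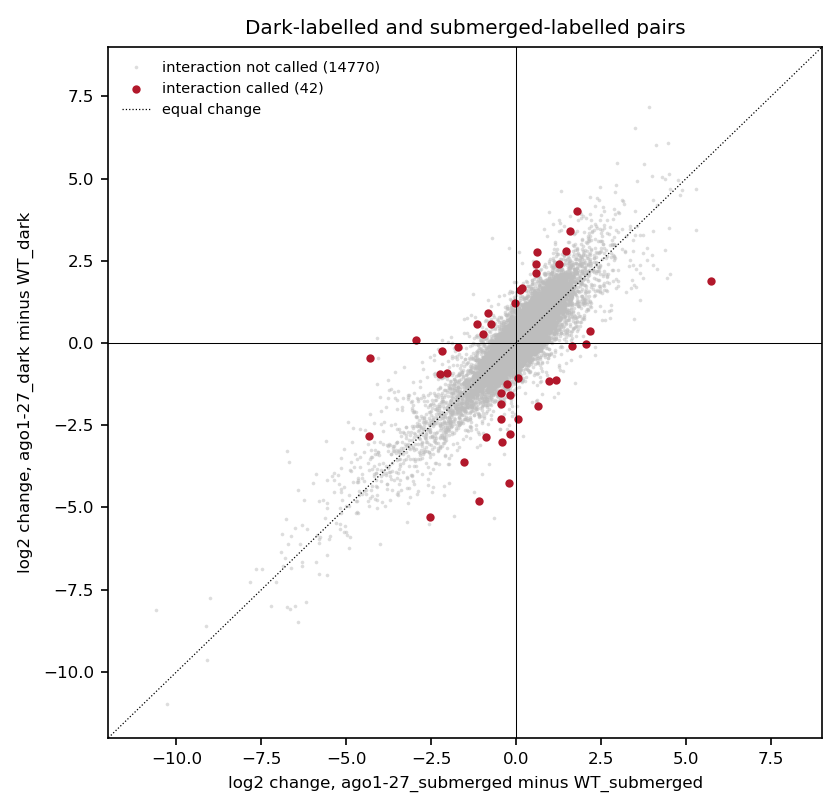
Log2 change of 14812 probe sets in the dark-labelled pair (vertical) against the submerged-labelled pair (horizontal), both ago1-27 minus WT. Grey points follow the dotted line of equal change, and the 42 red points are those whose interaction was called.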

How the data were processed

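Leaf RNA of 4 groups, 3 samples each, was measured on 1-colour Affymetrix ATH1 arrays. The deposited values are MAS5 signal intensity on a linear scale, per the submitters' processing notes, 1 value per probe set and array; the MAS5 version and settings are not given in the sources used here. Precision is limited by 3 arrays per group. Of 22810 probe sets, 64 are controls, 13513 name 1 gene in the platform annotation (13484 matched to RefSeq, 29 not), 503 several and 8794 none. A gene was represented by its probe set of highest mean signal.

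Signals were log2-transformed and kept as scaled by the authors. Probe sets over the 40th percentile on 3 or more of the 12 arrays were fitted with limma 3.58.1 in R 4.3.3 (4 group means over all 12 arrays, eBayes with its variance trend on intensity; residual degrees of freedom 8, prior 4.61). P-values were adjusted by Benjamini-Hochberg over 14812 probe sets, and called means an adjusted p under 0.05. Log2 changes are ago1-27 minus WT, ± SE. Where all arrays of a group were under the limit, a lower bound on the fold is given, from the mean log2 of the brighter group and, for the dim group, of the higher of each array's limit and signal.

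Gene groups are described by counts and medians, without a test. Members and lists were chosen with earlier results of these data known; some lists were added after the annotation was read, and the stomata and trichome list after the values were seen. Named genes were the 15 largest rises and falls that did not overlap, outside the low-oxygen list, up to 4 calls each way per list, the largest interactions, and 3 low-oxygen genes. Genes of the added lists, and PDC2, PSB27, PSAE-1, PORB and SWEET17, were chosen after their values were seen. Alternatives were the filter, scaling, floor, a pseudocount of 16, variance model, array weights, the 6 arrays alone, a replicate block and leaving out each array; leaving out a submerged-labelled array, or both arrays that stood apart, was chosen after seeing the data. The fit was tested on simulated data.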

Additional observations from a re-analysis of the deposited data

Results flagged for a closer look

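The genes below were singled out because their log2 change between ago1-27 and WT differed between the dark-labelled and the submerged-labelled pairs when the difference itself was tested, as an interaction in the limma fit over all 12 arrays (adjusted p under 0.05). They are the 10 with the largest difference each way among probe sets that name 1 gene. Of these 20 genes, 4 were still called without WT_submerged replicate 1, and all 20 without WT_dark replicate 1. Leaving out replicate 1, 2 or 3 of ago1-27_dark kept 12, 9 and 6 calls, and median centring kept 9.

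The difference was negative, meaning a lower ago1-27 level relative to WT in the dark-labelled pair, for AT3G09480 (-4.06 ± 0.62 (adjusted p = 0.017)), AT2G20560 (-3.72 ± 0.62 (adjusted p = 0.028)), AT3G22240 (-2.60 ± 0.36 (adjusted p = 0.015)), AT5G46230 (-2.56 ± 0.38 (adjusted p = 0.016)) and BGLU25 (-2.36 ± 0.33 (adjusted p = 0.015)). It was negative too for AT1G73600 (-2.12 ± 0.31 (adjusted p = 0.016)), FHL (-2.08 ± 0.27 (adjusted p = 0.015)), Hop2 (-1.86 ± 0.27 (adjusted p = 0.016)), CHI (-1.73 ± 0.31 (adjusted p = 0.046)) and AT3G27770 (-1.40 ± 0.17 (adjusted p = 0.013)). AT3G09480, AT2G20560 and AT5G46230 were under the low-signal limit on all 3 ago1-27_dark arrays, so their fitted differences depend on signals too low to be measured well.

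The difference was positive for AT3G10720 (1.30 ± 0.22 (adjusted p = 0.028)), AT1G61260 (1.52 ± 0.28 (adjusted p = 0.046)), AT2G39980 (1.52 ± 0.27 (adjusted p = 0.037)), AT5G08350 (1.53 ± 0.27 (adjusted p = 0.037)) and AT3G50560 (1.76 ± 0.23 (adjusted p = 0.015)). It was positive too for AT4G18970 (1.82 ± 0.30 (adjusted p = 0.028)), AT5G05250 (1.94 ± 0.26 (adjusted p = 0.015)), AT2G05540 (2.15 ± 0.25 (adjusted p = 0.013)), AT4G12490 (3.03 ± 0.56 (adjusted p = 0.046)) and AT4G12500 (3.86 ± 0.56 (adjusted p = 0.016)). The interaction compares labelled groups. An exchange of the labels WT_dark and ago1-27_submerged, named above, would leave its value and sign as they are, since both groups enter it with the same sign.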

How the results depend on the processing

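The number of probe sets called between ago1-27_dark and WT_dark stayed between 6384 (limit at the 60th percentile) and 9812 (array weights) over all alternatives, within 1.5 times the 7834 reported. Among the named genes given with values, the call ended in at least 1 alternative for 8, APS3, AT3G10720, FMA, HWS, MCCA, RCA, SQN and TGH. A dim gene that the limit at the 60th percentile left out went untested there, and its lost call was not counted. No gene given with values and called in the reported fit changed direction. SNZ, named without values, was left out of this count. The count of interaction calls, 42, depended on the settings: it was 78 with the limit at the 60th percentile, 14 with median centring, 83 with signals under the 25th percentile raised to it, 26 without the intensity trend and 1798 with array weights. Leaving out 1 array at a time gave 5 (WT_submerged replicate 1) to 726 (WT_dark replicate 1), and leaving out both arrays that stood apart, WT_dark replicate 1 and ago1-27_submerged replicate 3, gave 1200. The cause was not tested. Deviations of same-numbered ago1-27_dark and WT_dark samples correlated at 0.26, 0.12 and -0.04, and the fit with a replicate block called 7793. Samples of different number were not compared, so whether replicate numbers pair the samples was not settled. The low-signal limit, 72.0 to 92.3, holds falls and rises to lower bounds where every array of a group was under it. For BCAT4, GIS, CRR21, SFP2, nad5 and FHL, among others, some but not all arrays of a group were under it. Their fitted changes rest in part on signals too low to be measured well.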
